A study of Mus musculus with 12 samples.

Results

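The mouse miRNA database entries mmu-miR-5126, mmu-miR-2137, mmu-miR-6240, mmu-miR-5099 and mmu-miR-1983, were followed here through cells held in a dormant state by inhibition of the kinase mTOR. They were picked by name, as entries under suspicion of holding pieces of other RNAs, and are 5 of the 1978 miRNA entries counted in every library. All 5 were found in the count files and all 5 passed the filter on low counts. They were picked with their fall in paused trophoblast stem cells already known from these same counts. That contrast, and each contrast that shares its libraries, is therefore given below as a description with no p-value.

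Small RNA was sequenced from 4 groups of mouse stem cells in culture. Paused TSC were trophoblast stem cells, which give rise to the placenta, treated with an mTOR inhibitor whose name the labels do not give, and control TSC were the same cell type labelled WT. Paused ESC were embryonic stem cells of the established line E14 under the same kind of treatment, and control ESC were E14 cells labelled wt. No genotype other than WT, dose or duration of treatment is given in the labels, E14 is a single line, and the labels name no TSC line. The labels list 3 samples per group, but in each group the file of replicate 3 held the same count as that of replicate 2 at all 1978 miRNAs. The pair was counted as 1 library, so 8 distinct libraries remained, with 2 in each group. Whether replicates were separate cultures is not said in the labels, and p-values measure only the spread between these libraries, which may be technical.

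A miRNA is a short RNA cut from a hairpin precursor by the enzymes Drosha and Dicer and loaded into an Argonaute protein, where its seed, bases 2 to 8, pairs with target mRNAs. Databases of miRNAs were built largely from sequenced small RNA, and breakdown products of tRNA, ribosomal RNA and other abundant RNAs fall into the same length range. Entries that rest on a few early reads are therefore harder to tell from such fragments than entries with a clear pair of arms. Fragments of tRNA are known to become more or less abundant when cells are stressed or slow their protein synthesis, and mTOR is a main regulator of protein synthesis. A count on one of these entries says that reads matched its sequence, and does not say which RNA they were cut from.

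The sequences below, from RefSeq on GRCm38.p6, are shown because the entries are under suspicion of holding pieces of other RNAs. Each runs 5′ to 3′. In the 4 mature sequences the capitals mark the seed. The RefSeq table used here gives the hairpin for miR-5099, which is printed in lower case.
miR-5126: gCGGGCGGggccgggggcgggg
miR-2137: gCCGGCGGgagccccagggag
miR-6240: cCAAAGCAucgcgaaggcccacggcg
miR-1983: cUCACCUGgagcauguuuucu
Mir5099 hairpin: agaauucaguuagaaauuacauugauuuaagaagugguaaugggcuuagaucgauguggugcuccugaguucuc

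The 4 mature sequences had 4 different seeds. The seed of miR-6240 was shared with miR-330-3p and that of miR-1983 with miR-412-3p, while no other entry had the seed of miR-5126 or of miR-2137. Of the 4, 3 were rich in G and C. The sequence of miR-5126 was built of G and C alone (GC content 100%, 77.3% of it G), miR-2137 had 85.7% GC and miR-6240 69.2%. The median GC content was 52.2% over the 1679 entries with a RefSeq mature sequence and 45.5% over the 164 of them that passed the filter. Among those 164, miR-5126, miR-2137 and miR-6240 ranked 1, 2 and 4 by GC content, and miR-1983 ranked 68 with 47.6%. The mature miR-6240 was also long, at 26 bases, a length that only 14 of the 1679 entries reached or passed.

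The 5 entries lie on 5 chromosomes. Mature miR-5126 is at chr1:84695890-84695911 on the plus strand. Its hairpin lies opposite exon 1 of Dner, within the 5′ untranslated part of that exon (84695729 to 84696221 in GENCODE M21), and Dner, which encodes a ligand of the Notch receptor family, is read from the other strand. Mature miR-2137 is at chrX:72992113-72992133 on the plus strand, in an intron of Zfp185 on the same strand. Mature miR-6240 is at chr5:114851973-114851998 on the plus strand, between genes, 1582 bases from the nearest protein-coding gene, 4930519G04Rik. The hairpin of miR-5099 is at chr12:36816205-36816278 on the plus strand, between genes. When the 4 mature sequences were searched on both strands of 141767 GENCODE transcripts, the single match, also with 1 mismatch allowed, was that of miR-5126 to the opposite strand of Dner. The ribosomal RNA repeat and the tRNA genes were not searched in this way, so the search says nothing of matches to those RNAs.

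The fifth, mature miR-1983, is at chr13:21896930-21896950 on the minus strand and lies across the 3′ end of a tRNA gene. The gene is n-TItat14, a tRNA for isoleucine with anticodon TAT, which spans 21896938 to 21897031 and is 94 bases long. It makes up 71.2% of the 132 bases of the miR-1983 hairpin. In the hairpin below (chr13:21896918-21897049) capitals mark the tRNA gene, and in the mature sequence they mark the 13 bases inside it, which are followed by 8 bases past its end.
Mir1983 hairpin: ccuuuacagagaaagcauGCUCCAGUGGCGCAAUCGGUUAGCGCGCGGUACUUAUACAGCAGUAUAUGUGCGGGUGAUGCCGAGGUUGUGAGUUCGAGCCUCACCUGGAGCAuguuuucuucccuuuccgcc
miR-1983: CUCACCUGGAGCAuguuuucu
The first 7 bases of the tRNA gene, gcuccag, are the reverse complement of the run cuggagc inside the mature sequence, 1 base before the end of the gene; in a tRNA these 2 ends pair to form the acceptor stem. Of 1005 RefSeq mouse hairpins compared with 430 tRNA genes, the hairpin of miR-1983 was the 1 that overlapped such a gene.

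The folded hairpins also differed. Computed with RNAfold, the folding energy per base was -0.211 kcal/mol for miR-6240, and 1.39% of the 1005 hairpins were less stable. It was -0.629 kcal/mol per base for miR-5126, with 96.7% of hairpins less stable. The other three lay nearer the median of -0.406, at -0.373 for miR-2137, -0.359 for miR-5099 and -0.399 for miR-1983. The energy of the miR-1983 hairpin includes the pairs of the tRNA within it.

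Library totals lay between 13607 and 115492 counts. A count of 0 allows up to 3 counts, which corresponds to 26.0 CPM (counts after scaling libraries to equal size) at the highest total and to 220 CPM at the lowest. These floors and the sums over marker lists are scaled by the library totals alone. Markers of the 2 cell types followed the labels in part. The summed level of the 3 TSC markers of the cluster of miR-322 and miR-503 was 50144 to 68226 CPM in paused TSC and 96336 to 103445 CPM in control TSC, against 693 to 777 CPM in paused ESC and 623 to 1102 CPM in control ESC. The 4 markers of the cluster of miR-302 and miR-367, an ESC marker here, summed to 54.4 to 64.8 CPM in paused ESC and 2180 to 4116 CPM in control ESC, against 0 CPM in paused TSC and up to 52.0 CPM in control TSC, so that paused ESC lay close to TSC in this marker. The CPM values of single entries further below also carry the scaling factors of the TMM method (trimmed mean of M-values), so they are not on the scale of these sums.

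The 5 entries held a larger share of the counts in control TSC than in the other 3 groups. They took 3.39% and 3.83% of the counts in the 2 paused TSC libraries, against 10.9% and 14.4% in the control TSC libraries. They took 2.02% and 3.37% in paused ESC, against 3.53% and 3.09% in control ESC. Both control TSC libraries were above each of the other 6, and the ESC groups overlapped. The means were 3.61 ± 0.31% in paused TSC, 12.6 ± 2.5% in control TSC, 2.69 ± 0.95% in paused ESC and 3.31 ± 0.31% in control ESC (SD, n = 2 each). The difference of the means was -9.01 percentage points for paused minus control TSC and -0.616 points for paused minus control ESC. The ESC difference was within the spread of the paused ESC libraries, and without paused ESC replicate 1 it was 0.0588 points in the other direction.

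**Figure D1:**
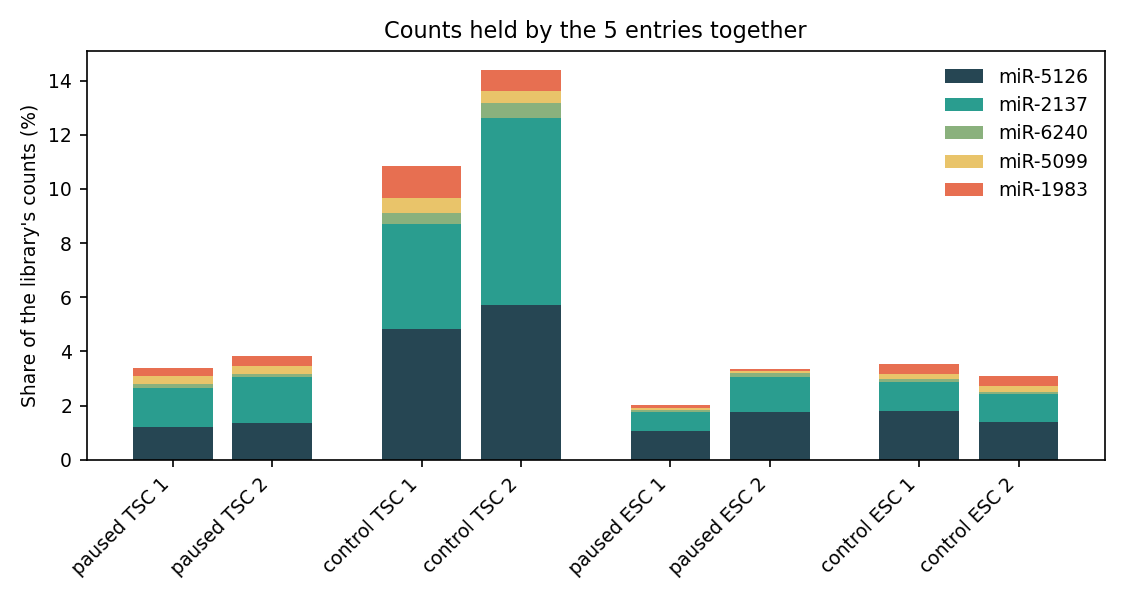
Share of each library's counts (y axis, %) held by the 5 entries, stacked by entry, in the 8 distinct libraries (x axis, group and replicate number). The control TSC bars reach 10.9% and 14.4%, and the other 6 lie between 2.02% and 3.83%, with miR-5126 and miR-2137 making up most of every bar.

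Because the cluster of miR-290 to miR-295, which is abundant in early mouse embryos, took much of each library, the share was also taken of the counts outside the cluster. On that scale the 5 entries held 8.72 ± 0.60% in paused TSC against 26.1 ± 2.6% in control TSC, and 7.74 ± 2.72% in paused ESC against 9.07 ± 1.29% in control ESC (SD, n = 2 each). The order of the TSC groups was the same on both scales.

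miR-5126 and miR-2137 made up most of the 5-entry total, from 78.1% in a paused TSC library to 91.0% in a paused ESC library. In control TSC replicate 2, miR-2137 was the fourth and miR-5126 the fifth most abundant entry of the library. In control TSC replicate 1 the order of the pair was reversed, with miR-5126 in place 7 and miR-2137 in place 10. The balance between this pair was compared between the cell types. The ratio of miR-5126 to miR-2137 counts was 0.778 to 0.820 in paused TSC and 0.829 to 1.25 in control TSC, against 1.34 to 1.53 in paused ESC and 1.38 to 1.69 in control ESC. All 4 TSC libraries were thus below all 4 ESC libraries, but the gap from 1.25 to 1.34 was narrower than the spread of control TSC. The ratio of miR-5126 to miR-6240 overlapped between the cell types. It was 8.06 to 12.4 in paused TSC and 10.4 to 11.5 in control TSC, against 10.4 to 11.2 in paused ESC and 16.5 to 17.3 in control ESC. How often the ratio of other pairs of miRNAs separates the cell types was not tested. The ratio of miR-5099 to miR-1983 ran from 0.371 in a paused ESC library to 1.01 in a paused TSC library.

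miR-5126 had 1.19% and 1.34% of the counts in paused TSC, against 4.83% and 5.71% in control TSC. In ESC it had 1.06% and 1.75% in paused cells, against 1.80% and 1.40% in control cells. Control TSC stood above all other libraries, and the other 3 groups lay in 1 range. As counts, the TSC values were 282 and 409 in paused against 5581 and 1070 in control libraries.

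miR-2137 had 1.45% and 1.73% in paused TSC, against 3.87% and 6.89% in control TSC. It had 0.690% and 1.31% in paused ESC, against 1.06% and 1.01% in control ESC. Both control TSC libraries were again the highest, paused TSC came next, above all 4 ESC libraries, and the paused ESC libraries lay on either side of the control ESC ones.

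miR-6240, which was much less abundant, had 0.148% and 0.108% in paused TSC, against 0.420% and 0.550% in control TSC. It had 0.102% and 0.157% in paused ESC, against 0.109% and 0.0808% in control ESC. Only control TSC stood apart. The lowest value rests on 11 counts, with a 95% Wilson interval of 0.0451% to 0.145%.

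miR-5099 had 0.300% and 0.269% in paused TSC, against 0.542% and 0.454% in control TSC. In ESC it had 0.0449% and 0.0405% in paused cells, against 0.192% and 0.243% in control cells. Paused libraries were below control libraries in both cell types, and the ESC libraries were below the TSC libraries. The paused ESC values rest on 33 and 25 counts, and the interval of the second is 0.0274% to 0.0598%.

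miR-1983, the entry across the tRNA gene, had 0.296% and 0.384% in paused TSC, against 1.19% and 0.769% in control TSC. It had 0.121% and 0.105% in paused ESC, against 0.363% and 0.353% in control ESC. Paused libraries were below control libraries in both cell types, and paused TSC lay at the level of control ESC.

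**Figure D2:**
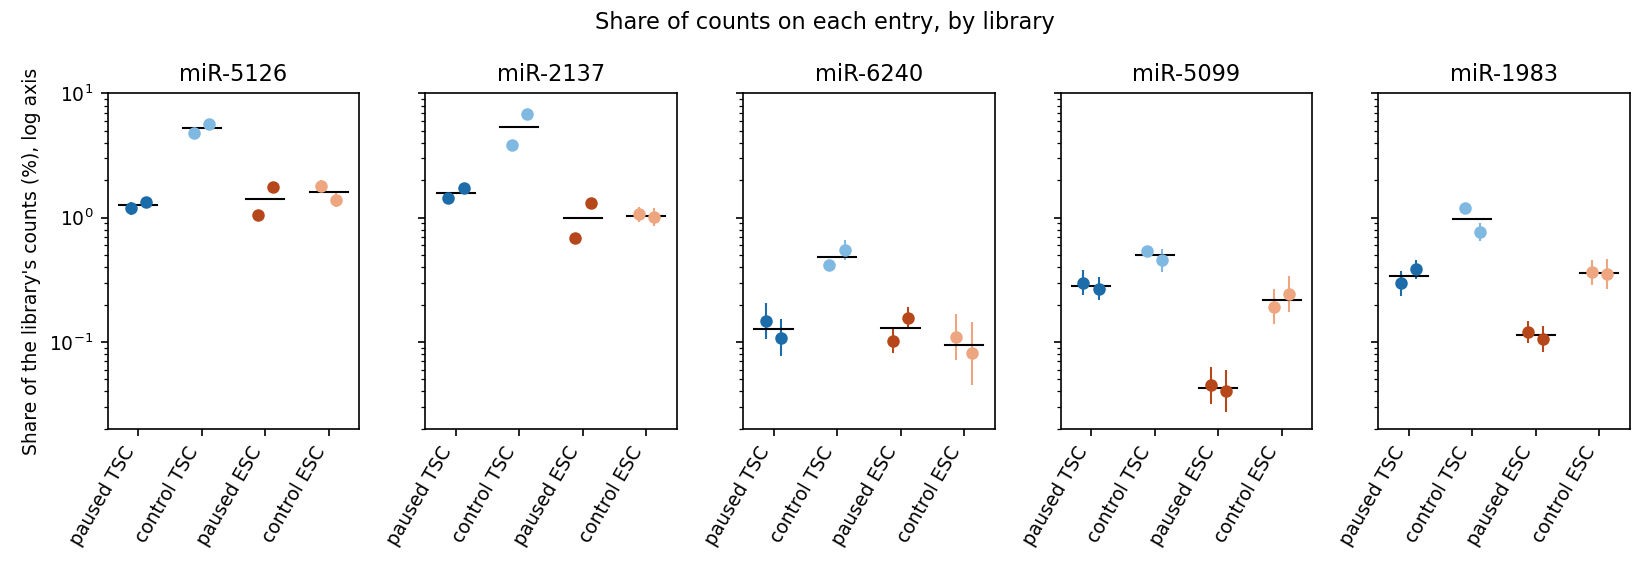
Share of the library's counts (y axis, %, log axis) on each of the 5 entries in the 4 groups (x axis). Points are the 2 distinct libraries of a group with their 95% Wilson intervals, which cover counting error alone, and lines are group means. For miR-5126, miR-2137 and miR-6240 the control TSC libraries are the highest, and for miR-2137 the paused TSC libraries also lie above the ESC ones, while miR-5099 and miR-1983 are lower in paused than in control cells in TSC and in ESC.

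In TSC, all 5 entries were lower in paused than in control cells. In edgeR's quasi-likelihood fit to all 4 groups, with calls at a Benjamini-Hochberg adjusted p under 0.05, the log2 fold change of paused over control TSC was -2.50 ± 0.32 (SE) for miR-5126, at 12012 ± 504 CPM in paused and 67750 ± 4731 CPM in control TSC (SD, n = 2 each). It was -2.35 ± 0.38 for miR-6240, at 1222 ± 317 CPM in paused and 6189 ± 15 CPM in control TSC. For miR-2137 it was -2.16 ± 0.32, for miR-1983 -2.03 ± 0.35 and for miR-5099 -1.30 ± 0.35. All 5 were called lower, against 17% of the 206 miRNAs tested, and in all 5 the libraries of the groups did not overlap, against 35.9% of the 206 in that direction. Since these falls were known when the entries were picked, nothing is read from those counts.

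The size of the fall depended on the scaling. The TMM factor was 0.680 for control TSC replicate 1, and 0.858 with the 5 entries left out of its computation. The median log2 fold change of the 206 miRNAs, paused over control TSC, was -0.39 with TMM, -0.01 with the 5 entries left out of TMM and 0.08 with total counts alone. Taken relative to that median, miR-5126 was at -2.11, -2.14 and -2.14 on these 3 scalings, miR-6240 at -1.97, -1.99 and -1.99, and miR-2137 at -1.77, -1.82 and -1.83. On the same 3 scalings miR-1983 was at -1.65, -1.64 and -1.62, and miR-5099 at -0.91, -0.92 and -0.90. A change of scaling shifts all miRNAs of a comparison by nearly the same amount. The values relative to the median were therefore bound to be close on the 3 scalings and are no check of the fall. Of the 5 calls, 4 held under each of 18 alternatives. The fall of miR-1983 was smaller without control TSC replicate 1 (-1.17) or paused TSC replicate 1 (-1.42), and that of miR-2137 without control TSC replicate 2 (-1.45). The call of miR-5099 held under 6 of the 18 and was kept in 1 of the 8 fits with a library left out, the one without control TSC replicate 2. Its log2 fold change was -0.68 without control TSC replicate 1, and from -0.89 to -0.98 without any one of the paused TSC or the ESC libraries. In bulk RNA, fewer cells that hold an RNA and less of it per cell cannot be told apart.

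In ESC the 5 entries split. miR-5099 and miR-1983 were called lower in paused cells, with log2 fold changes of paused over control ESC of -2.23 ± 0.42 and -1.56 ± 0.37 (SE). miR-5099 was at 399 ± 18 CPM in paused and 1898 ± 299 CPM in control ESC, and miR-1983 at 1058 ± 74 CPM in paused and 3129 ± 87 CPM in control ESC (SD, n = 2 each). These 2 of 5 stand against 19.4% of the 206 miRNAs called lower, and their libraries did not overlap, as in 34% of the 206 in that direction. Both falls were known from these data, and so was the level of most of the 5 entries as a list in ESC, so no p is given in this contrast. Without control ESC replicate 1 miR-1983 was no longer called, at -1.16.

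miR-5126, miR-2137 and miR-6240 were not called in ESC in either direction, while 27.7% of the 206 were. The log2 fold change of miR-5126 was -0.08 ± 0.31 (SE; 95% interval -0.69 to 0.53), at 13233 ± 4977 CPM in paused and 13978 ± 2596 CPM in control ESC. For miR-2137 it was 0.05 ± 0.31 (95% interval -0.57 to 0.67), at 9425 ± 4370 CPM in paused and 9081 ± 370 CPM in control ESC. For miR-6240 it was 0.52 ± 0.43 (95% interval -0.31 to 1.36), at 1218 ± 400 CPM in paused and 830 ± 180 CPM in control ESC. The libraries of both groups overlapped for all 3. As ratios of paused over control, the intervals run from 0.620 to 1.44 for miR-5126, from 0.676 to 1.59 for miR-2137 and from 0.805 to 2.57 for miR-6240. In TSC the same ratios were 0.177, 0.224 and 0.196. The 3 entries moved together between the paused ESC libraries: replicate 2 was above replicate 1 by 0.79 for miR-5126, 0.98 for miR-2137 and 0.68 for miR-6240 on the log2 scale, against a median absolute difference of 0.31 over the 206 miRNAs.

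Markers of other cells were read beside these results, and the blood markers differed between the ESC groups. The 5 blood markers summed to 4826 to 5668 CPM in paused ESC and 8928 to 11097 CPM in control ESC, against 0 to 42.3 CPM in paused TSC and 0 to 121 CPM in control TSC, with miR-223-3p and miR-451a at 0 in every library. The 5 fibroblast markers summed to 891 to 1060 CPM in paused ESC and 808 to 1142 CPM in control ESC, against 164 to 423 CPM in paused TSC and 267 to 641 CPM in control TSC, with miR-199a-5p at 0 throughout, and the ESC groups overlapped. The 2 endothelial markers summed to 2001 to 2325 CPM in paused TSC and 2000 to 2724 CPM in control TSC. In ESC they summed to 1020 to 1047 CPM in paused and 955 to 1038 CPM in control cells. Paused and control libraries thus overlapped in both cell types for these markers. Whether such other cells were present was not tested, nor was any part of them or of the depth of the libraries in the results.

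**Figure D3:**
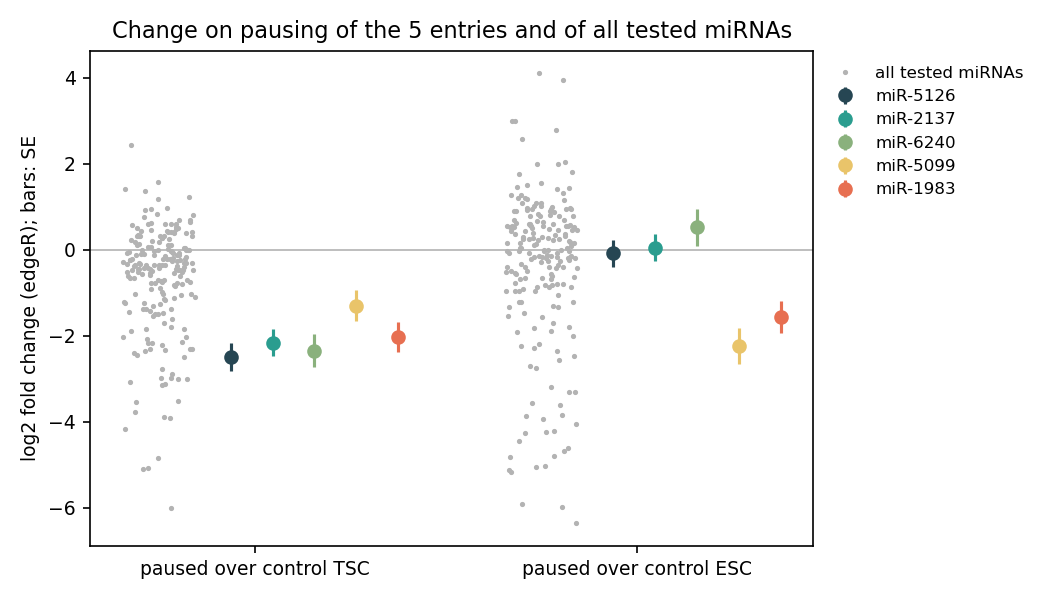
Log2 fold change of paused over control cells (y axis, edgeR) in TSC (left) and ESC (right), for the 206 tested miRNAs (grey) and the 5 entries (coloured, bars are SE). All 5 lie below 0 in TSC, from -2.50 to -1.30, while in ESC miR-5126, miR-2137 and miR-6240 lie between -0.08 and 0.52 and miR-5099 and miR-1983 at -2.23 and -1.56.

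The difference of the pause effects, TSC minus ESC, divided the entries in the same way. It was -2.41 ± 0.44 (log2, SE) for miR-5126, -2.21 ± 0.44 for miR-2137 and -2.88 ± 0.57 for miR-6240, and each was called. It was 0.93 ± 0.54 for miR-5099 (95% interval -0.13 to 1.99) and -0.47 ± 0.50 for miR-1983 (-1.45 to 0.50), and neither was called. The 3 calls stand against 14.6% of the 206 miRNAs called in that direction. This difference contains the TSC contrast for which the entries were known, so it is given as a description. The 3 calls held under all 17 alternatives that give this difference. Without paused ESC replicate 2 the difference was -1.81 for miR-5126 and -1.49 for miR-2137, and without control TSC replicate 2 it was -1.58 for miR-2137. miR-5099 was called under 4 of the 17, one being the fit without control TSC replicate 1 (1.46).

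Between the cell types, all 5 entries were higher in control TSC than in control ESC. The log2 fold change of control TSC over control ESC was 2.89 for miR-2137, 2.87 for miR-6240, 2.27 for miR-5126, 2.08 for miR-1983 and 1.82 for miR-5099, with SE from 0.32 to 0.42. All 5 were called higher, against 40.8% of the 206. Without control TSC replicate 1 the value was 1.22 for miR-1983 and 1.20 for miR-5099, and without control TSC replicate 2 it was 2.22 for miR-2137. With TMM computed without the cluster of miR-290 to miR-295, the values were 2.25 for miR-2137, 2.21 for miR-6240, 1.61 for miR-5126, 1.39 for miR-1983 and 1.14 for miR-5099, and all 5 calls held. In paused cells the picture was mixed. Paused TSC over paused ESC was 2.75 ± 0.40 (SE) for miR-5099, 1.60 ± 0.36 for miR-1983 and 0.68 ± 0.31 for miR-2137, and these 3 were called higher, against 39.3% of the 206. It was -0.14 ± 0.31 for miR-5126 and -0.00 ± 0.39 for miR-6240, neither called. miR-5126 was called lower under 2 of 18 alternatives, at -0.84 with TMM computed without the cluster of miR-290 to miR-295 and at -0.54 with median of ratios. The call of miR-2137 held under 10 of 18 alternatives. It was lost with DESeq2 (0.28), median of ratios (0.28), no filter on low counts (0.32) and TMM computed without that cluster (-0.013). It was also lost without paused TSC replicate 2 (0.44), paused ESC replicate 1 (0.30), control ESC replicate 1 (0.50) or control ESC replicate 2 (0.50). With TMM computed without the same cluster, miR-5099 was at 2.00 and miR-1983 at 0.86, and both calls held. These comparisons share the control or the paused TSC libraries with the TSC contrast.

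Ordered by mean CPM, miR-5126, miR-2137 and miR-6240 were highest in control TSC. Their means in the other 3 groups lay between 12012 and 13978 CPM for miR-5126, between 9081 and 15063 CPM for miR-2137 and between 830 and 1222 CPM for miR-6240. For miR-5099 the order was control TSC at 6545 ± 2021 CPM, paused TSC at 2707 ± 322 CPM, control ESC at 1898 ± 299 CPM and paused ESC at 399 ± 18 CPM. Neighbours in this order did not overlap. Of the 206 miRNAs, 35.9% were lower without overlap in paused than in control TSC, and 34% in paused than in control ESC. For paused TSC against control ESC that share was not computed. For miR-1983 the order was control TSC at 13066 ± 6221 CPM, then paused TSC at 3216 ± 456 CPM and control ESC at 3129 ± 87 CPM, which did not differ beyond their spread, and paused ESC at 1058 ± 74 CPM.

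Profiles over the 8 libraries were compared as well. The log2 CPM profile of each entry was centred on its own mean and compared with those of the other 205 tested miRNAs by the root mean square (RMS) difference. The 2 nearest profiles to miR-6240 were miR-5126 (RMS 0.324) and miR-2137 (0.360), and the nearest to miR-5126 and to miR-2137 was miR-6240. Over all 205 the median RMS from miR-6240 was 1.46. From miR-5126, miR-1983 was at 0.710, in place 6, and miR-5099 at 1.04, in place 33. From miR-2137, miR-1983 was in place 8 (0.705), and from miR-6240 in place 16 (0.844). Seen from miR-1983, miR-2137 was in place 12, miR-5126 in place 13 and miR-6240 in place 22. The profile nearest to miR-1983 was that of miR-5099 (0.428), while from miR-5099, miR-1983 was in place 6. These are descriptions over 8 libraries that share 4 groups.

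Among the nearest profiles outside the 5, miR-712-5p came in place 3 from miR-5126 (0.504) and from miR-6240 (0.371), and miR-712-3p came second from miR-2137 (0.410). Both arms come from 1 hairpin, which is known in mouse as a product of the spacer of precursor ribosomal RNA. Nearest to miR-5099 were miR-669f-5p (0.199), miR-467d-5p (0.284) and miR-669e-5p (0.295), members of the large cluster within the gene Sfmbt2. Reads of these near-identical families can be split between members. After miR-5099, the profiles nearest to miR-1983 were miR-34a-3p (0.433) and let-7i-5p (0.457).

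Other entries of doubtful origin did not all move like the 5. Of 46 such entries listed with earlier results known, 29 were in the files and 4 passed the filter. miR-712-5p, at 286 ± 63 CPM in paused and 2259 ± 1231 CPM in control TSC (SD, n = 2 each), was lower in paused TSC by edgeR (log2 fold change -2.89 ± 0.46, SE), and miR-712-3p was at 251 ± 55 CPM against 1768 ± 393 CPM (-2.78 ± 0.46). In ESC these 2 arms were not called, at 0.92 ± 0.57 and 0.96 ± 0.70. miR-690 was called lower in paused TSC (-1.47 ± 0.44) and higher in paused ESC (2.00 ± 0.59). Its control ESC level rests on 2 and 4 counts, against 33 and 59 in paused ESC. In control ESC, miR-712-5p had 6 and 3 counts and miR-712-3p had 2 and 3. In paused TSC, miR-712-5p had 8 counts in each library and miR-712-3p had 7. Values that rest on so few counts are imprecise. miR-3473b was not called in TSC (0.32 ± 0.41), and in ESC it was at 147 ± 32 CPM in paused against 3859 ± 688 CPM in control cells (-4.69 ± 0.46). Of the 4, 3 were thus called lower in paused TSC, against 17% of the 206 miRNAs, with a median of -2.12. In paused ESC 1 was called lower, against 19.4% of the 206, and 1 higher, against 8.25%, with a median of 0.94. The medians over the 206 were -0.39 in TSC and -0.03 in ESC.

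All 5 entries have names without a -5p or -3p arm, as 323 of the 1978 entries do. Of those 323, 13 were tested and 8 called lower in paused TSC, against 17% of the 206 miRNAs. Without the 5 entries, 8 were tested and 3 called lower, against the same 17%. The median log2 fold change of these 8 was -0.49, beside -0.39 over the 206. The other 318 held 0.769% and 0.800% of the counts in paused TSC, against 0.604% and 1.17% in control TSC, which overlap. They held 0.741% and 0.839% in paused ESC, against 1.12% and 1.30% in control ESC.

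High GC content was shared by 3 of the entries, so the other miRNAs of high GC content were looked at as well. Of 21 tested miRNAs with 60% GC or more, 4 were called lower in paused TSC, and 3 of these were miR-5126, miR-2137 and miR-6240. Of the other 18, 1 was called lower and 1 higher, with a median log2 fold change of 0.28. miR-324-3p, with 70% GC, was at 0.06, and miR-296-3p, with 68.2%, at 0.39. Of the same 18, 7 had a negative log2 fold change. Among them were miR-665-3p (65% GC) at -1.42, miR-210-3p (63.6%) at -1.02 and miR-326-3p (66.7%) at -0.59. Above 70% GC the 164 tested miRNAs with a sequence held miR-5126 and miR-2137 alone, so no other miRNA is comparable to these in GC content. In the class under 40% GC the median was -0.61, with 7 of 38 (18.4%) called lower. From 40% to under 50% GC the median was -0.35, with 12 of 66 (18.2%) called lower. From 50% to under 60% GC it was -0.23, with 4 of 39 (10.3%). All these counts stand against 17% of the 206 tested miRNAs called lower in paused TSC. The limits of these classes were chosen after the values were seen, and what else differs between classes was not tested.

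**Figure D4:**
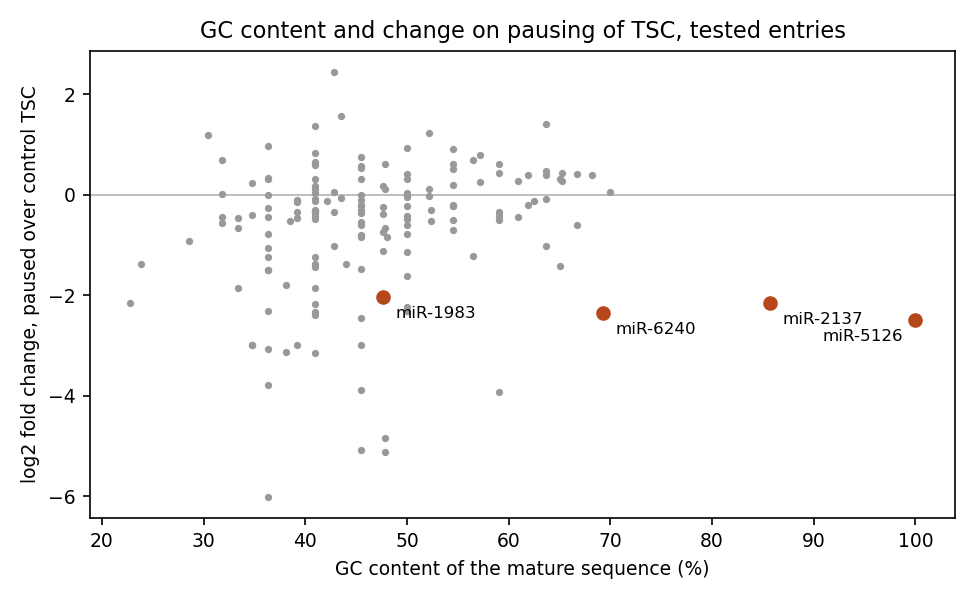
GC content of the mature sequence (x axis, %) and log2 fold change of paused over control TSC (y axis, edgeR) for the 164 tested miRNAs with a RefSeq sequence, with 4 of the 5 entries in red. miR-5126, miR-2137 and miR-6240 lie at 69.2% to 100% GC and between -2.50 and -2.16. The other 18 miRNAs with 60% GC or more have a median of 0.28 and run from -1.42 to 1.42.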

How the data were processed

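The authors deposited raw counts, 1 whole number per mature miRNA for 1978 entries, and the submitters' processing notes name the genome build GRCm38. How reads were trimmed, aligned and counted, and with which annotation release, was not given in the sources used. Per the labels' protocols, libraries were made from 10 ng of RNA, amplified for 12 cycles and read singly over 75 bases. No molecular identifiers are mentioned, so intervals and floors cover counting error only.

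Files that were identical within a group were collapsed, and 8 libraries were kept. Counts were tested in edgeR 4.0.16 (R 4.3.3) with TMM scaling, filterByExpr (minimum count 10, which left 206 miRNAs), 1 mean per group over all 4 groups, two-sided quasi-likelihood tests and Benjamini-Hochberg adjustment over the 206. The common dispersion was 0.0456 (biological coefficient of variation 21.3%) with 4 residual degrees of freedom, and single miRNAs were drawn fully to the trend, so p-values rest on a spread pooled over miRNAs. SE is the absolute log2 fold change over the square root of F, and fold intervals are normal 95% intervals. The procedure was run on simulated counts with the common dispersion for every miRNA and changes put into paused TSC alone. The groups otherwise had equal means there, so that run cannot show how scaling acts where the cell types differ. Shares carry 95% Wilson intervals.

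The 5 entries and all lists were chosen with earlier results of these data known. Named besides them were the 3 nearest profiles of each entry and the tested members of the list of other doubtful entries; the named miRNAs of high GC content were chosen after their values were seen. Sequences, hairpins and tRNA genes came from RefSeq (GRCm38.p6), exons from GENCODE M21, and folding from ViennaRNA 2.7.2. No genome sequence was used here, so transcripts were searched. Alternatives were DESeq2 1.42.0, other scalings, no filter, other sample sets, replicate blocks and leaving out each library.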

Additional observations from a re-analysis of the deposited data

Results flagged for a closer look

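For 3 of the 5 entries edgeR called a difference between the effects of pausing in the 2 cell types. The log2 fold change of paused over control TSC minus that of paused over control ESC was -2.41 for miR-5126, -2.21 for miR-2137 and -2.88 for miR-6240. In TSC these entries were at -2.50, -2.16 and -2.35, and in ESC at -0.08, 0.05 and 0.52, in the same order. The TSC part of each difference was known when the entries were picked, so these calls are a description and no independent support for a difference.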

How the results depend on the processing

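Of the numbers of entries called and the share differences under the alternatives, 112 stayed close to the reported value, 4 moved and 1 changed sign. Numbers of entries called were compared without regard to which entries were called or in which direction. In paused TSC over paused ESC, median of ratios and TMM without the cluster lost the call of miR-2137 and called miR-5126 lower. Both were still tallied as close. The log2 changes of single entries were tallied together with the transcript search with 1 mismatch allowed, whose result stayed the same. Of these, 394, with that search among them, kept their direction and side. A call in the same direction was lost by 20 and gained by 7, and 25 changed sign. Among those 25, 1 (miR-2137 in paused TSC over paused ESC) also lost its call. With counts outside the cluster of miR-290 to miR-295 as the denominator, the share of the 5 entries differed by -17.4 points between paused and control TSC, by -1.33 between paused and control ESC and by 17.05 between control TSC and control ESC (-9.01, -0.616 and 9.31 with all counts). Without one library each in turn, the paused minus control ESC share ran from -1.29 to 0.0588 points, and the number of entries called in ESC was 1 to 2. The miR-5126 log2 change in ESC turned to 0.052 with DESeq2, 0.052 with median of ratios, 0.27 with TMM without the cluster, 0.23 with no filter and 0.10 with every file as a library, and ran from -0.30 to 0.45 with a library left out. That of miR-2137 turned to -0.057 with total counts and ran from -0.30 to 0.43. In paused TSC over paused ESC, miR-5126 ran from -0.45 to 0.12 and miR-6240 from -0.28 to 0.18 with a library left out; miR-6240 was 0.074 with TMM without the 5 entries, and miR-2137 -0.013 with TMM without the cluster. The miR-1983 difference of pause effects was 0.12 with total counts and ran from -0.57 to 0.30. The cause was not tested.

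The replicate number pairs no samples by the labels, and deviations of same-numbered libraries correlated at -0.183 in TSC and -0.0715 in ESC over 206 miRNAs. With the replicate block, 4 of 5 entries were called in TSC and 2 in ESC, miR-2137 was at -0.031 in ESC and miR-6240 at 0.010 in paused TSC over paused ESC. The block moved the calls over all 206 miRNAs in TSC to 12 lower and 0 higher, against 35 and 4 without it. With the numbers crossed in TSC, an alternative chosen after seeing the data, 5 and 2 entries were called, miR-2137 was at -0.033 and miR-6240 at 0.012.

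Over all 206 miRNAs, 35 were lower and 4 higher in paused TSC, against 10 and 2 by DESeq2, 12 and 14 with total counts, 17 and 10 with TMM without the 5 entries, 18 and 6 with median of ratios and 13 and 6 with TMM without the cluster. In paused ESC 40 were lower and 17 higher, against 28 and 9, 42 and 15, 41 and 22, 37 and 29 and 33 and 41 in the same order of settings. In control TSC over control ESC 69 were lower and 84 higher, against 89 and 63 with total counts. Among the 5 entries, the fewest counts in a library were 11 for miR-6240 and 25 for miR-5099, which limits the precision of their shares. The search of the genome, exact or with 1 mismatch, was not run, and the fit on only the groups compared gives no difference of pause effects.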
